A study of Rattus norvegicus with 6 samples.

Results

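The insulin-like growth factor (IGF) genes described here are the ligands Igf1 and Igf2, the receptors Igf1r and Igf2r, and the binding proteins Igfbp1, Igfbp2, Igfbp3, Igfbp4, Igfbp5 and Igfbp6. They were chosen by gene symbol, with earlier results of these data known. All 10 genes had a probe on the array, and their 12 probes were among 30367 probes, of which 17998 were matched to 15154 named genes. Igf1 and Igfbp2 were each represented by 2 probes, and the probe with the higher mean signal stood for the gene. Female Wistar pups had been injected intraperitoneally with LPS (lipopolysaccharide of Salmonella, 0.05 mg/kg) or with saline on both postnatal day (PND) 3 and PND 5, and whole ovaries were taken on PND 7. The LPS and the saline groups comprised 3 single-colour Agilent arrays each, made from ovaries of several animals and more than 1 litter per treatment. Which animals lay behind which array is not given in the sources used here, and whole litters rather than single pups had been allocated to a treatment, so that p-values measure the spread between these arrays. The comparison asked whether a peripheral immune challenge in the first days of life was followed by a different ovarian level of each transcript.

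IGF1 and IGF2 are small secreted proteins that resemble insulin and promote growth and survival of cells through the receptor tyrosine kinase IGF1R. IGF2R, which is also the mannose 6-phosphate receptor, takes up IGF2 and delivers it for breakdown. The IGF-binding proteins hold most of the ligand outside the cell, and proteases release it from them. In the ovary these genes are known for their part in granulosa cell growth and in the fate of follicles, and in the neonatal rat this is the time when germ cell nests break down and primordial follicles form.

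No IGF gene differed between treatments after adjustment for all probes, and none reached the study's criterion of a 2-fold difference at an unadjusted p under 0.05. Over all probes, 1.69% met that criterion and 0% had a limma adjusted p under 0.05. Igfbp2 and Igfbp5 stood nearest to it. Igfbp2 was 1.76-fold lower on average on the LPS arrays, with a log2 fold change of -0.82, and Igfbp5 was 1.64-fold higher, with a log2 fold change of 0.71. These were the only members at an unadjusted p under 0.05 in limma, 2 of 10, where 16.5% of all probes and 4.24% of the 18093 probes that cleared background on all 6 arrays were. The other 8 members had log2 fold changes between -0.24 for Igf1r and 0.32 for Igf1.

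Signal was sufficient for every member. All 12 probes were well above background, as flagged by the scanner software, on all 6 arrays, and no spot was saturated. The intensity at the 75th percentile of an array lay between 2824 and 6754, and between 66.3% and 76.0% of the spots of an array were well above background. Levels are given as the log2 of the signal relative to the 75th percentile of the same array, so that 1 unit is a 2-fold step and 0 is the level of that percentile. They can be compared between arrays for 1 probe, but not between probes. In RNA from whole ovaries, fewer cells of a type and less RNA per cell cannot be told apart. The arrays held ovarian RNA by their markers. All 9 granulosa cell markers and all 8 oocyte markers with a probe were well above background on every array.

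Saline replicates 2 and 3 stood apart from the other arrays. The summed log2 level of 6 adrenal cortex markers was 7.35 and 7.77 on these arrays and between -0.43 and 0.63 on the LPS arrays and saline replicate 1. That of 7 adrenal medulla markers was 6.32 and 5.71, against 1.34 to 2.35 on the other 4 arrays. Liver markers, 6 in all, reached 3.45 on saline replicate 2 and 0.37 on saline replicate 3, and lay between -1.90 and -1.09 elsewhere. Of these 3 lists, 6 of 7 medulla, 5 of 6 cortex and 2 of 6 liver markers met the 2-fold and unadjusted p criterion, all lower in LPS. Among the other lists, 1 of 6 macrophage markers and 1 of 11 theca and stroma markers (Tcf21) were higher by this criterion, and 1 of 3 red blood cell markers was lower. The summed theca and stroma level was nonetheless 7.33 and 7.64 on saline replicates 2 and 3, and 3.465 to 4.75 on the other arrays. In that list Cyp11a1, Star and Hsd3b1 had log2 fold changes of -5.20, -2.54 and -1.91, none at an unadjusted p under 0.05 in limma. None of the 9 granulosa, 8 oocyte, 6 kidney, 4 fat, 3 oviduct and 4 smooth muscle markers met it. Results for the IGF genes are therefore also given without saline replicates 2 and 3.

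**Figure D1:**
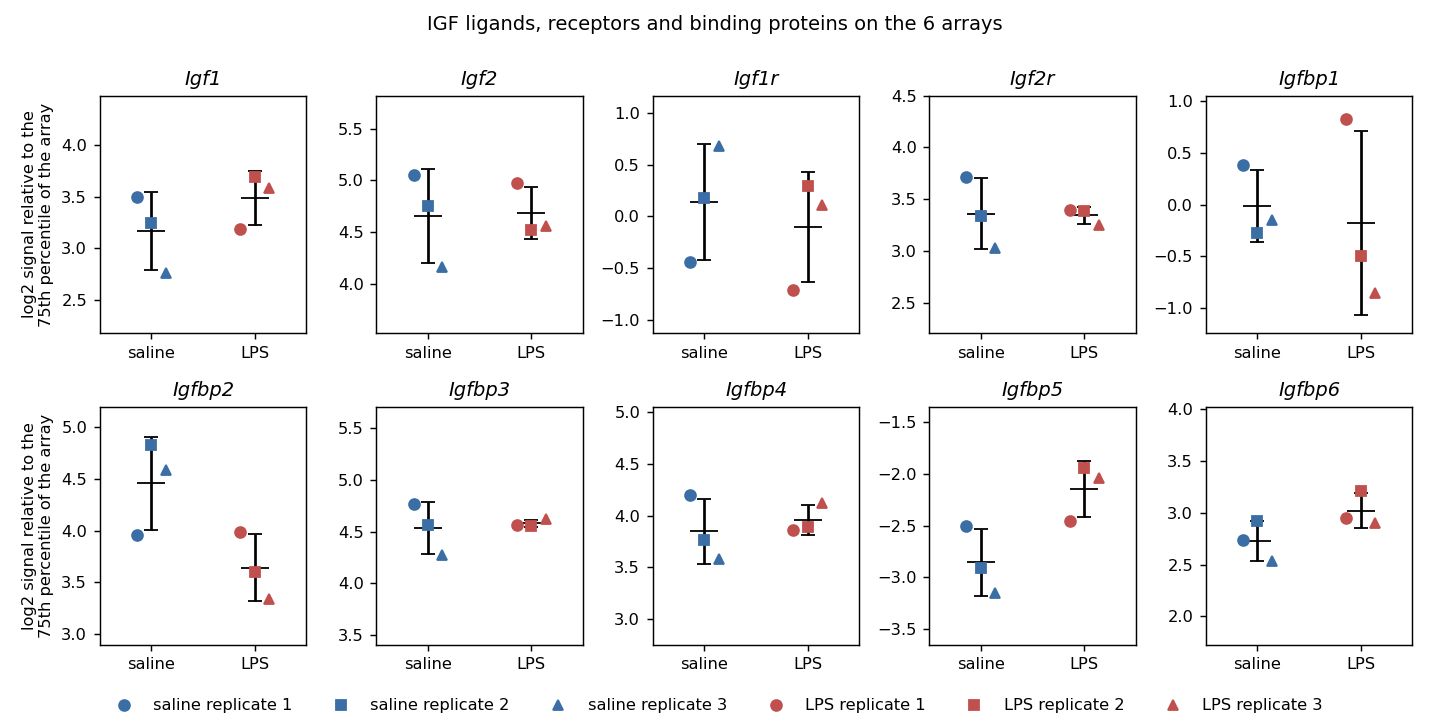
Log2 signal of the 10 IGF genes on each array, relative to the 75th percentile of the array (y axis, the same span in every panel), for saline (blue) and LPS (red), with marker shapes for replicate numbers and black bars for the mean ± SD (n = 3). The saline and LPS points overlap in 9 panels, as they do for 88.6% of the probes well above background on every array. In the panel of Igfbp5 all LPS points, from -2.45 to -1.94, lie above all saline points, from -3.15 to -2.50.

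Among the ligands, Igf1 encodes the growth factor made in the liver under the control of growth hormone and also locally in growing tissues. Its log2 level was 3.50, 3.25 and 2.76 on saline replicates 1, 2 and 3, and 3.19, 3.69 and 3.58 on LPS replicates 1, 2 and 3. The groups overlapped, since LPS replicate 1 lay below saline replicates 1 and 2. The log2 fold change was 0.32 (95% interval -0.29 to 0.92, adjusted p = 0.681 in limma). The dimmer probe of Igf1 gave 2.98, 2.99 and 3.08 on the saline arrays and 2.78, 3.62 and 3.57 on the LPS arrays. Its log2 fold change of 0.31 was close to that of the brighter probe, while its SD in saline was 0.06 compared with 0.37. Without saline replicates 2 and 3 the brighter probe gave -0.01 and the dimmer probe 0.34.

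Igf2, the ligand of fetal growth that is expressed from the paternal allele, was measured by 1 probe. Its log2 level was 5.05, 4.76 and 4.16 on saline replicates 1, 2 and 3, and 4.97, 4.52 and 4.56 on LPS replicates 1, 2 and 3. The LPS arrays lay within the range of the saline arrays. The difference was 0.03 on the log2 scale with a 95% interval from -0.63 to 0.68, so that an LPS level up to 1.61-fold higher could not be distinguished from none with 3 arrays in each group. H19, the imprinted noncoding RNA next to Igf2, was also highest on saline replicate 1 at 6.63 and lowest on saline replicate 3 at 5.68, with a log2 fold change of -0.01 (standard error 0.29).

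For the receptors, Igf1r carries the signal of both ligands. It was represented by 1 probe on 10 spots of each array. Its log2 level was -0.44, 0.18 and 0.68 on saline replicates 1, 2 and 3, and -0.71, 0.29 and 0.11 on LPS replicates 1, 2 and 3. The low values were those of replicate 1 in each treatment, and the span within a treatment, 1.12 in saline and 1.00 in LPS, exceeded the log2 fold change of -0.24 (95% interval -1.145 to 0.66, adjusted p = 0.899 in limma). The difference had the opposite sign, 0.34, without saline replicates 2 and 3. The summed level of granulosa markers was likewise lowest on LPS replicate 1, at 4.39, compared with 5.27 to 6.37 on the other arrays, and that of oocyte markers was 4.07 on LPS replicate 1 and 4.32 to 5.55 on the others. The part of these cells in the level of Igf1r was not tested.

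Igf2r, the uptake receptor for IGF2, varied little on the LPS arrays, with log2 levels of 3.39, 3.39 and 3.25. The saline arrays, at 3.72, 3.33 and 3.03, surrounded them. The log2 fold change of -0.02 had a 95% interval from -0.53 to 0.50, the sign turned in 5 of 17 alternatives, and the direction for Igf2r was therefore not settled.

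**Figure D2:**
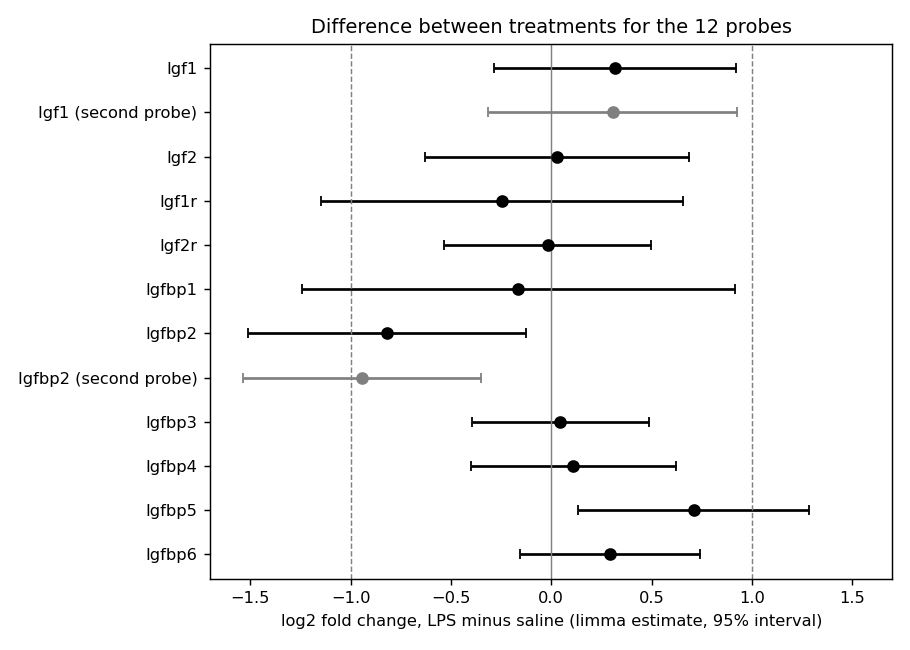
Log2 fold change of LPS minus saline from limma for the 12 IGF probes (x axis) with 95% intervals. Black marks the probe used for a gene and grey the dimmer probe of Igf1 and Igfbp2, and dashed lines mark a 2-fold difference. The intervals of Igfbp2, from -1.51 to -0.13, and of Igfbp5, from 0.13 to 1.29, leave out 0, as does that of the dimmer Igfbp2 probe.

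The 6 binding proteins did not move together. Their log2 fold changes were spread from -0.82 for Igfbp2 to 0.71 for Igfbp5, and 4 of the 6 were positive. Over all 10 members, 6 were positive and the median was 0.04, compared with 54.0% positive and a median of 0.02 over the probes that cleared background everywhere. Igfbp2 and Igfbp5, whose values ran in opposite directions, are direct neighbours in the rat genome, with 0 protein-coding genes between them in the RefSeq annotation, and so are Igfbp1 and Igfbp3.

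Igfbp2 encodes a binding protein abundant in fetal and neonatal tissues. On the brighter probe, a single spot, its log2 level was 3.95, 4.83 and 4.59 on saline replicates 1, 2 and 3, and 3.98, 3.59 and 3.34 on LPS replicates 1, 2 and 3. Saline replicates 2 and 3 were high, and saline replicate 1 lay among the LPS arrays, below LPS replicate 1. The means were 3.64 ± 0.32 (SD, n = 3) for LPS and 4.46 ± 0.45 (SD, n = 3) for saline. LPS minus saline was -0.82 on the log2 scale (standard error 0.29, limma adjusted p = 0.274), and the 2-sided exact permutation p was 0.2.

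The dimmer Igfbp2 probe gave 3.94, 4.48 and 4.07 on the saline arrays and 3.61, 3.07 and 2.98 on the LPS arrays. On this probe all LPS arrays lay below all saline arrays. The mean was 1.92-fold lower, or -0.94 on the log2 scale (standard error 0.25, limma adjusted p = 0.271), and the exact permutation p was 0.1, the smallest that 3 arrays against 3 can give. Groups did not overlap at 23.4% of all probes, and at 11.4% of those well above background on every array.

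On the dimmer probe saline replicate 1, at 3.94, lay just below saline replicate 3, at 4.07. On either probe, the 2 arrays with the highest Igfbp2 were those with adrenal transcripts. Without them, saline replicate 1 alone against the LPS arrays gave a log2 fold change of -0.31 on the brighter probe (unadjusted p = 0.409 in limma) and -0.72 on the dimmer one (unadjusted p = 0.106 in limma), under the assumption that the lone saline array varied like the LPS arrays. Without saline replicate 1 the brighter probe passed the 2-fold criterion, at -1.07 (adjusted p = 0.191 in limma). The part of adrenal or liver RNA in the Igfbp2 level was not tested.

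Igfbp5 encodes a binding protein that associates with the extracellular matrix and, in the rat ovary, is known from follicles undergoing atresia. Its log2 level was -2.50, -2.91 and -3.15 on saline replicates 1, 2 and 3, and -2.45, -1.94 and -2.04 on LPS replicates 1, 2 and 3. Every LPS array lay above every saline array, but LPS replicate 1 exceeded saline replicate 1 by 0.05 only. At 11.4% of the probes well above background on every array the groups were likewise separate, in either direction. LPS minus saline was 0.71 on the log2 scale (standard error 0.24, limma adjusted p = 0.271), with an exact permutation p of 0.1. It was 0.42 with normexp background correction and 0.36 without saline replicates 2 and 3, and the unadjusted p under 0.05 was lost in both. The summed level of macrophage markers was 1.99 to 2.14 on the LPS arrays and 1.53 to 1.96 on the saline arrays, a narrow separation. Aif1, the brightest of these markers, overlapped between the groups, at 1.38 to 1.64 in LPS and 0.93 to 1.53 in saline. Among the LPS arrays the macrophage sum was highest on replicate 1, where Igfbp5 was lowest, and lowest on replicate 2, where Igfbp5 was highest. Of 6 macrophage markers, 3 were higher at an unadjusted p under 0.05 in limma (Csf1r, Adgre1 and Mrc1), Cd68 and Cd163 had log2 fold changes of -0.16 each, and 4 cleared background on all 6 arrays. Their part in the Igfbp5 level was not tested.

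Igfbp6, which binds IGF2 in preference to IGF1, was 2.73, 2.92 and 2.53 on saline replicates 1, 2 and 3, and 2.95, 3.21 and 2.90 on LPS replicates 1, 2 and 3. Only saline replicate 2 lay within the LPS range. The log2 fold change of 0.29 (95% interval -0.15 to 0.74, adjusted p = 0.551 in limma) was small but even, and it was 0.29 also without saline replicates 2 and 3.

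Igfbp1, a binding protein that the liver releases when insulin is low, was 0.38, -0.27 and -0.15 on saline replicates 1, 2 and 3, and 0.83, -0.50 and -0.86 on LPS replicates 1, 2 and 3. The highest values were again those of replicate 1 in each treatment, and the LPS arrays alone spanned 1.69. The log2 fold change of -0.16 had a 95% interval from -1.24 to 0.92. Its 2 highest arrays were those with the highest oviduct markers, whose summed level was 5.33 on LPS replicate 1, 5.59 on saline replicate 1 and 4.10 to 4.52 on the other arrays. The kidney list was also highest on these arrays, at -0.41 and -0.405, compared with -1.43 to -0.87 on the others. The parts of oviduct and kidney RNA were not tested.

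Igfbp3 encodes the main carrier of IGFs in blood, and Igfbp4 an inhibitory binding protein that the protease PAPP-A cleaves. Igfbp3 was 4.77, 4.57 and 4.27 on saline replicates 1, 2 and 3, and 4.56, 4.56 and 4.62 on LPS replicates 1, 2 and 3, the LPS values lying within 0.06 of each other. Its log2 fold change of 0.05 had the narrowest interval of the 10 genes, from -0.40 to 0.49, which leaves room for a change of up to 1.40-fold higher. Igfbp4 was 4.195, 3.77 and 3.58 on the saline arrays and 3.86, 3.89 and 4.12 on the LPS arrays, and its log2 fold change was 0.11 (95% interval -0.40 to 0.62).

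LPS replicates 2 and 3 lay in another row of the slide than the other 4 arrays. Blocking on that row, which leaves only LPS replicate 1 to compare with saline, gave a log2 difference of -0.47 for Igfbp2 and -0.55 for its dimmer probe, and 0.40 for Igfbp5, and none of these had an unadjusted p under 0.05 in limma. For Igfbp1 it was 0.84, opposite in sign to the value without the block, with an unadjusted p of 0.0476 in limma. The spread behind these p-values comes from the other arrays, since LPS replicate 1 has no second LPS array in its row. The other row held LPS arrays only and gives no difference of its own.

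On the probe used for each gene, the SD was larger in saline for 9 of the 10 genes, Igfbp1 being the exception. It was larger in saline for 58.0% of the probes well above background on every array and for 64.7% of the 1970 probes at least as bright as Igfbp6. The dimmer probes went the other way, with an SD of 0.06 in saline and 0.47 in LPS for Igf1, and 0.28 in saline and 0.34 in LPS for Igfbp2. On the probes used, saline replicate 3 was the lowest of the 6 arrays for 7 genes (Igf1, Igf2, Igf2r, Igfbp3, Igfbp4, Igfbp5 and Igfbp6). It was lowest for 17.6% of the probes well above background on every array and for 22.9% of the 1970 brighter ones. Igf1r, Igfbp1 and Igfbp5 are dimmer than those 1970. The dimmer Igf1 probe was lowest on LPS replicate 1 instead. Saline replicate 1 was the highest array for 4 genes (Igf2, Igf2r, Igfbp3 and Igfbp4). It was highest for 23.9% of the probes well above background on every array and for 50.5% of the 1970 brighter ones.

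**Figure D3:**
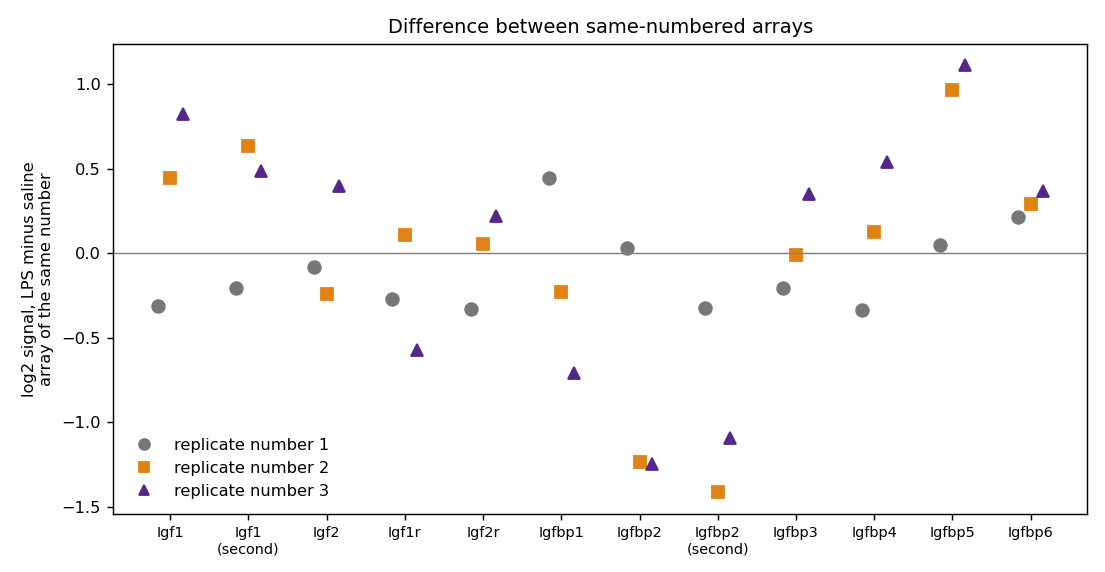
Log2 signal of each LPS array minus the saline array with the same replicate number (y axis) for the 12 IGF probes (x axis), with 1 point for each number. For both probes of Igfbp2 and for Igfbp5 the points of numbers 2 and 3 lie far from 0, and the points of number 1 lie at 0.03, -0.33 and 0.05.

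Deviations from the group mean correlated weakly across probes between arrays of the same replicate number, at 0.215 to 0.298. LPS replicate 2 also correlated with saline replicate 3, at 0.16, and the labels state no pairing. The LPS minus saline difference was nonetheless also taken within each number. For Igfbp2 it was 0.03, -1.24 and -1.25 for numbers 1, 2 and 3. For Igfbp5 it was 0.05, 0.97 and 1.11. In both genes the difference was larger for numbers 2 and 3 than for number 1. Their saline arrays are those with adrenal transcripts and their LPS arrays are those in the other slide row, and the parts of these in the difference cannot be told apart here. The dimmer Igfbp2 probe differed for number 1 as well, by -0.325, and by -1.415 and -1.09 for numbers 2 and 3. For Igfbp6 it was 0.22, 0.29 and 0.37. On the probes used, Igfbp5 and Igfbp6 were the 2 genes of 10 whose 3 differences had the same sign, and those of the dimmer Igfbp2 probe did too. The same held for 33.0% of the probes well above background on every array. For Igf1 the differences were -0.31, 0.45 and 0.82. With the replicate number as a block, the log2 fold changes stayed the same. In that fit 1 of the 10 genes, Igfbp5, had an unadjusted p under 0.05 in limma, where 6307 of 30367 probes did. This p was 0.0463 for Igfbp5 and 0.0526 for Igfbp2, and 0.0167 for the dimmer Igfbp2 probe.

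**Figure D4:**
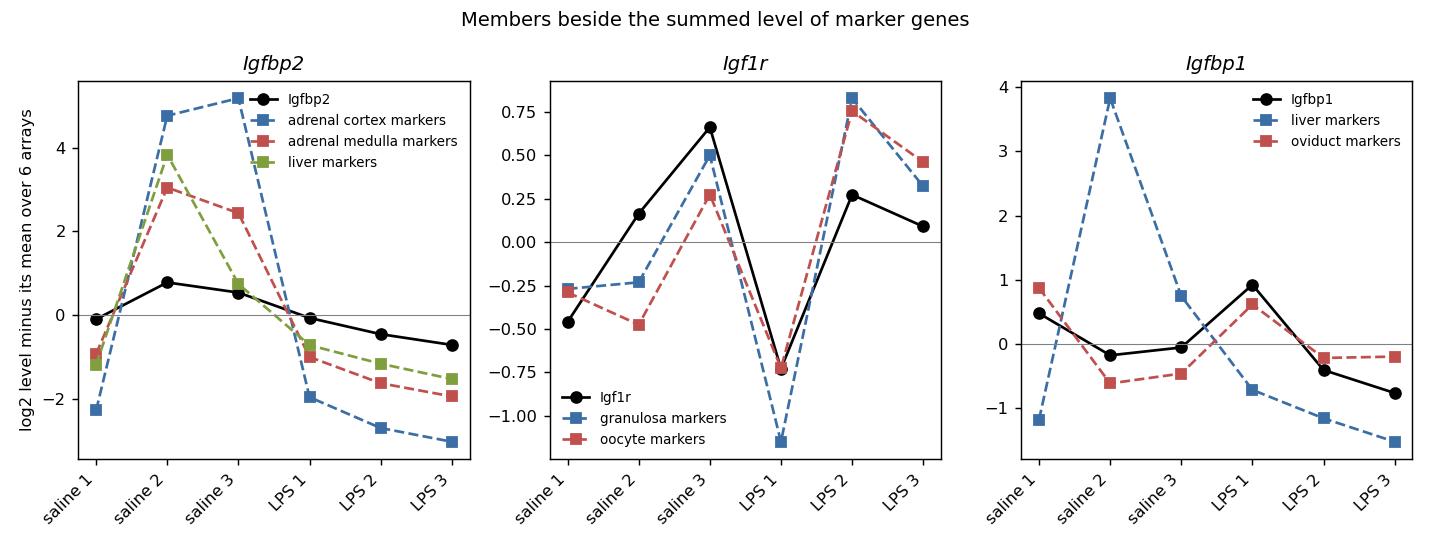
Log2 level on each of the 6 arrays (x axis), minus its mean over the arrays (y axis, a separate scale in each panel), of Igfbp2, Igf1r and Igfbp1 (black) and of the summed level of marker lists (dashed). On the brighter probe, which alone is drawn for this gene, Igfbp2 is highest on saline replicates 2 and 3 with the adrenal lists. Igf1r is lowest on LPS replicate 1 with the granulosa and oocyte lists, and Igfbp1 is highest on the 2 arrays with the highest oviduct markers.

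The genes around the IGF system were counted from lists of the pathway. Of 25 genes of insulin and IGF receptor signaling, 22 had a probe and none met the 2-fold and unadjusted p criterion. Their median log2 fold change was -0.01, compared with -0.03 over all named genes, and 10 of 22 were positive. Among those well above background on all arrays the largest differences were 0.68 for Pik3r1, the regulatory subunit of PI3-kinase, -0.55 for Irs2, an adaptor of the insulin and IGF receptors, -0.46 for Grb14, an inhibitor of the insulin receptor, and -0.46 for Ptpn1, a phosphatase that dephosphorylates the insulin receptor. Those at an unadjusted p under 0.05 in limma included Pik3r1 and Irs1, which were higher, and Ptpn1, which was lower, Irs1 being named here after its values were seen. Irs1, another adaptor of these receptors, cleared background on the 3 LPS arrays but on none of the saline arrays. Its LPS level was at least 1.66-fold higher, a bound that sets the LPS mean against the lowest signal well above background on each saline array or the gene's own signal where higher (adjusted p = 0.271 in limma). Insr, the insulin receptor gene, also named after its values were seen, was lower on all LPS arrays, from -2.89 to -2.79, than on all saline arrays, from -2.71 to -2.46. Its log2 fold change was -0.24 (adjusted p = 0.579 in limma). Such a separation, in either direction, was seen at 11.4% of the probes well above background on every array.

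Of 14 genes for binding protein proteases, their inhibitors, complex partners and related proteins, 9 had a probe and none met the criterion. The largest differences among those above background on every array were 0.35 for Stc1, a stanniocalcin, of which family members inhibit PAPP-A, -0.21 for Igfals, the subunit that stabilises IGFBP3 complexes in blood, 0.16 for Htra1, a serine protease, and 0.08 for Igfbpl1. All 10 growth hormone axis genes had a probe and none met the criterion. The leading values were 0.48 for Socs2, a feedback inhibitor of growth hormone signaling, 0.25 for Cish, of the same family, -0.24 for the growth hormone receptor gene Ghr and -0.08 for the transcription factor gene Stat5a. Prlr, the prolactin receptor gene, named here after its values were seen, was at 1.08 and 1.66 on saline replicates 2 and 3 and between -6.16 and -4.66 on the other arrays, and its log2 fold change of -3.69 had an unadjusted p of 0.104 in limma.

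Of the insulin and relaxin family, 8 of 9 genes had a probe and none met the criterion. Those above background on every array had log2 fold changes of -0.24 for Ins2, -0.06 for Rln3, -0.05 for Ins1 and -0.02 for Insl3, a hormone of gonadal steroid-producing cells. Ins1 and Ins2 are close copies, and their probes may share target. Of 6 genes of the imprinted region that holds Igf2, 1 met the criterion. It was Th, the tyrosine hydroxylase gene of catecholamine cells and one of the adrenal medulla markers, with a log2 fold change of -2.15 (adjusted p = 0.271 in limma). Its log2 level was 1.91, 4.404 and 3.81 on saline replicates 1, 2 and 3, and 1.80, 1.11 and 0.76 on LPS replicates 1, 2 and 3. Cdkn1c, an imprinted cell cycle inhibitor named here after its values were seen, was at 3.66, 4.46 and 3.94 on saline replicates 1, 2 and 3. On LPS replicates 1, 2 and 3 it was at 3.65, 3.41 and 3.40. Every LPS array lay below every saline array, but LPS replicate 1 only barely below saline replicate 1. The log2 fold change was -0.53 (adjusted p = 0.333 in limma). Groups did not overlap, in either direction, at 11.4% of the probes well above background on every array.

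**Figure D5:**
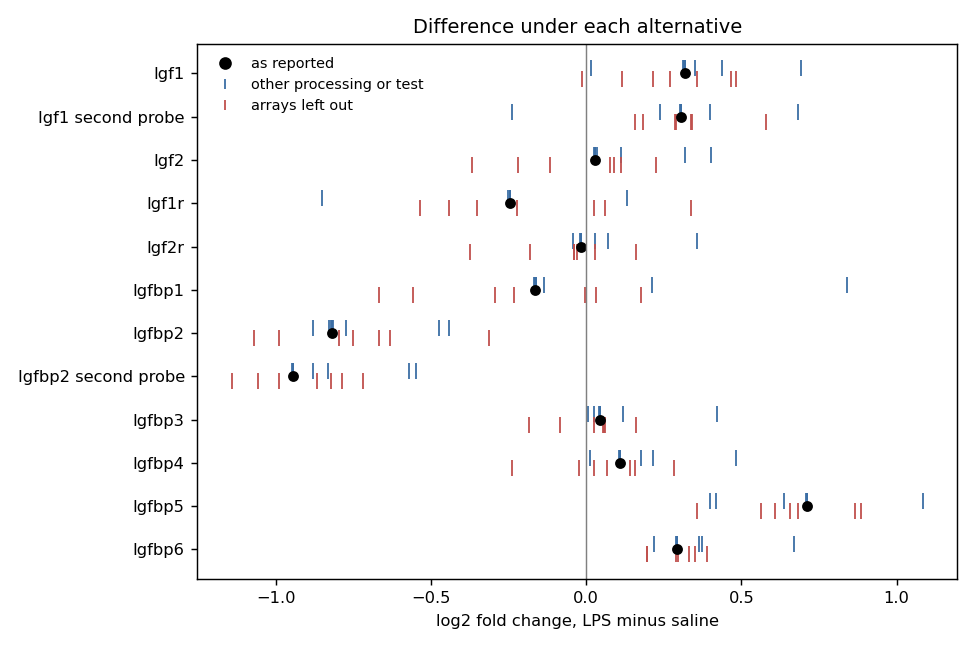
Log2 fold change of LPS minus saline (x axis) for the 12 IGF probes as reported (black) and under each alternative, with other processing or tests in blue and arrays left out in red. Both probes of Igfbp2 stay below 0 and Igfbp5 and Igfbp6 stay above 0 under every alternative shown, and each other probe has values on both sides of 0.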

How the data were processed

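The authors deposited spot intensity values of 6 arrays from Agilent Feature Extraction 10.5.1.1, with flags per spot, and a combined table in which each intensity differs from the processed signal by 0.497% at most. The processed signal is background-subtracted, detrended and not scaled between arrays. The flags (other) mark outlier spots and signal well above background. The labels name biotin and the methods Cy3 as label, and the step at which lumi was used is not given in the sources used here.

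Outlier-flagged spots were dropped, log2 signals of a probe's spots averaged, and the 75th percentile of each array subtracted. A probe was well above background where at least 0.5 of its spots were. limma 3.58.1 in R 4.3.3 (lmFit, eBayes) was fitted over 30367 probes with Benjamini-Hochberg adjustment, and was tested on simulated data. The methods state an analysis of variance without saying whether it covered the arrays, and with 2 groups it equals the methods' t-test tried as an alternative. RefSeq accessions gave symbols through the GRCr8 table, used for names and neighbours only. It matched 17998 probes. The genome build of the array design is not given in the sources used here, and no coordinates are printed. Summed marker levels are the log2 of summed relative signals. All lists and members were chosen with earlier results of these data known. All members are named, and of other lists every gene at the study's criterion or otherwise the 4 largest differences above background on all arrays. All arrays lay on 1 slide, and LPS replicates 2 and 3 lay in another row than the rest. Deviations of same-numbered arrays from their group means correlated at 0.298, 0.215 and 0.254 across probes, the only basis for pairing. Those of LPS replicate 2 and saline replicate 3 correlated at 0.16, and those of LPS replicate 3 and saline replicate 2 at 0.068. The 17 alternatives changed scaling, background, source table, flags, dim probes, test, blocks, probes or arrays. A result for 1 gene of the signaling list is not reported here.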

Additional observations from a re-analysis of the deposited data

How the results depend on the processing

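The count of IGF genes at the 2-fold and unadjusted p criterion, 0 as reported, was 1 without scaling between arrays (Igfbp5, 1.08) and 0 to 1 when single arrays were dropped, the 1 being Igfbp2 without saline replicate 1. The count at an unadjusted p under 0.05, 2 as reported, was 1 without scaling, with normexp, with the replicate block, with the slide row as a block (Igfbp1) and in the methods' t-test, 3 under quantile normalization (Igfbp2, Igfbp5 and Igfbp6), 0 without saline replicates 2 and 3, and between 0 and 3 with single arrays left out. It was 0 without LPS replicate 2, LPS replicate 3, saline replicate 2 or saline replicate 3. These counts leave out the dimmer Igfbp2 probe, whose unadjusted p in limma was 0.0311, 0.0263, 0.0266 and 0.0192 in these settings. That probe passed the 2-fold and unadjusted p criterion without LPS replicate 1, at -1.14, and without saline replicate 1, at -1.06. Of 30367 probes, 1844 had an unadjusted p under 0.05 without scaling, 1759 with normexp and 6307 with the replicate block. The methods' t-test gave 3954 and quantile normalization 1490. The 2-fold and unadjusted p criterion was met by 1230 probes without scaling and by 1131 without saline replicate 1. No IGF gene had an adjusted p under 0.05 under any of the 17 alternatives. In the signaling list 3 genes met the criterion without scaling and 0 to 1 with single arrays left out. Without scaling the median over the IGF genes was 0.412 and over all probes 0.34, compared with 0.04 and -0.04 as reported.
Signs turned as follows. Without scaling, Igf1r was 0.13, Igf2r 0.36 and Igfbp1 0.21. Igf2r was 0.072 under quantile normalization. With the slide row as a block, which rests on LPS replicate 1 against its row, Igf2r was 0.03, Igfbp1 0.84 and the dimmer Igf1 probe -0.24. Without saline replicates 2 and 3, Igf1 was -0.013, Igf2 -0.37, Igf1r 0.34, Igfbp3 -0.185 and Igfbp4 -0.24. With single arrays left out, Igf2 lay between -0.22 and 0.23, Igf1r between -0.535 and 0.06, Igf2r between -0.18 and 0.16, Igfbp1 between -0.67 and 0.18, Igfbp3 between -0.085 and 0.16, and Igfbp4 between -0.024 and 0.28. The cause was not tested. Over all 17 alternatives Igfbp2 lay between -1.07 and -0.31, Igfbp5 between 0.36 and 1.08 and Igfbp6 between 0.20 and 0.67. The replicate block changed no call at the 2-fold criterion. Precision is limited by having 3 arrays in each group.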
